A study of Homo sapiens with 12 samples.

Results

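The E2 ubiquitin-conjugating enzymes were taken as all gene symbols that begin with UBE2 followed by a letter, in either of the study's deposited expression tables. This gave 41 of 23284 symbols in the table of the first experiment and 32 of 12421 in that of the knockout experiment. Each of those 32 was also in the first table. The genes were chosen by symbol and not by a measured value, though the family itself was taken up with earlier results of these data known. Not each entry is an E2 enzyme. UBE2MP1, UBE2Q2P1, UBE2Q2P2 and UBE2Q2P3 are named as pseudogenes, UBE2F-SCLY is a read-through entry over UBE2F and its neighbour, and UBE2V1 and UBE2V2 are E2-like variants without the catalytic cysteine.

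Ubiquitin is attached to proteins by a relay. An E1 enzyme activates it, an E2 enzyme carries it on a cysteine, and an E3 ligase brings the loaded E2 to the substrate. The E2 largely sets which kind of chain is built, and some E2 enzymes carry ubiquitin-like proteins instead: UBE2M and UBE2F carry NEDD8, and UBE2L6 carries ISG15, the interferon-induced modifier. Others sit at the endoplasmic reticulum, where misfolded proteins are tagged for the proteasome, and UBE2C and UBE2S work with the anaphase-promoting complex, which ends mitosis.

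Ribosome-bound RNA from sucrose gradients was measured in HEK293, a line derived from human embryonic kidney. The cells had received 5 ug of empty vector or of a STING plasmid 24 h earlier; STING is the adaptor that signals the presence of DNA in the cytosol. Each of 6 groups had 2 libraries. The first experiment compared vector with STING in HEK293 cells with no genotype given. The knockout experiment compared vector with STING in cells labelled wild type and in cells labelled PERK KO, which lack a kinase of the endoplasmic reticulum stress response. The labels give neither the number of knockout clones nor the origin of the replicates. The spread behind each p-value is therefore that of these libraries and may be technical. Values are FPKM, fragments scaled by transcript length and library size, so levels can be compared between genes of 1 table. The second table does not name its unit, was read as FPKM and has a lowest value of 1. Total RNA was not analysed here, so a difference can lie in the amount of an RNA or in its loading with ribosomes, and fewer cells of a kind and less RNA per cell cannot be told apart.

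TMEM173, the older symbol of STING, stood between 13.8 and 43.8 FPKM in the 6 vector libraries. With the plasmid it stood at 65157 and 69253 FPKM in the first experiment, 41812 and 40660.1 in the wild type and 10512 and 7338 in the knockout, so the wild-type mean was 4.62 times the knockout mean. EIF2AK3, the gene of PERK, was at or under 1.15 FPKM in each of the 12 libraries, too low to check the label of the knockout. Of 8 genes listed for HEK293 cells, VIM, KRT8, KRT18, NEFL and CDH2 were above the lowest value in each library, and NEFM, PAX2 and LHX1 stood at 3.24 FPKM or lower. The defining markers PTPRC, CD3E, HBB, COL1A2, DCN and LUM were listed at 0 in the first experiment. The summed HEK293 list stood between 113 and 130 FPKM with vector and at 154 with STING in the first experiment. It stood between 165.4 and 233 FPKM in wild-type and between 295 and 498 in knockout libraries, and the part of these differences in the results below was not tested.

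The family spans almost 3 powers of 10 in level. UBE2C led both tables, with 806 and 744 FPKM in the vector libraries of the first experiment and 874 and 734 in those of wild-type cells in the second, above 98.8% and 98.4% of the symbols of each table. In the first experiment 5 members stood at 100 FPKM or more with vector (UBE2C, UBE2S, UBE2D3, UBE2T and UBE2E3), 15 between 10 and 100, 12 between 1 and 10, and 9 under 1. In wild-type vector cells of the second, 7 stood at 100 or more, 15 between 10 and 100 and 10 between 1 and 10. UBE2H was the lowest of these 32, with 2.78 and 3.79 FPKM. UBE2DNL, UBE2MP1, UBE2NL, UBE2QL1 and UBE2U were listed at 0 in each library of the first experiment, and UBE2Q2P2 and UBE2Q2P3 in each but STING library 2. Levels of the 2 tables are not on a shared scale.

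**Figure D1:**
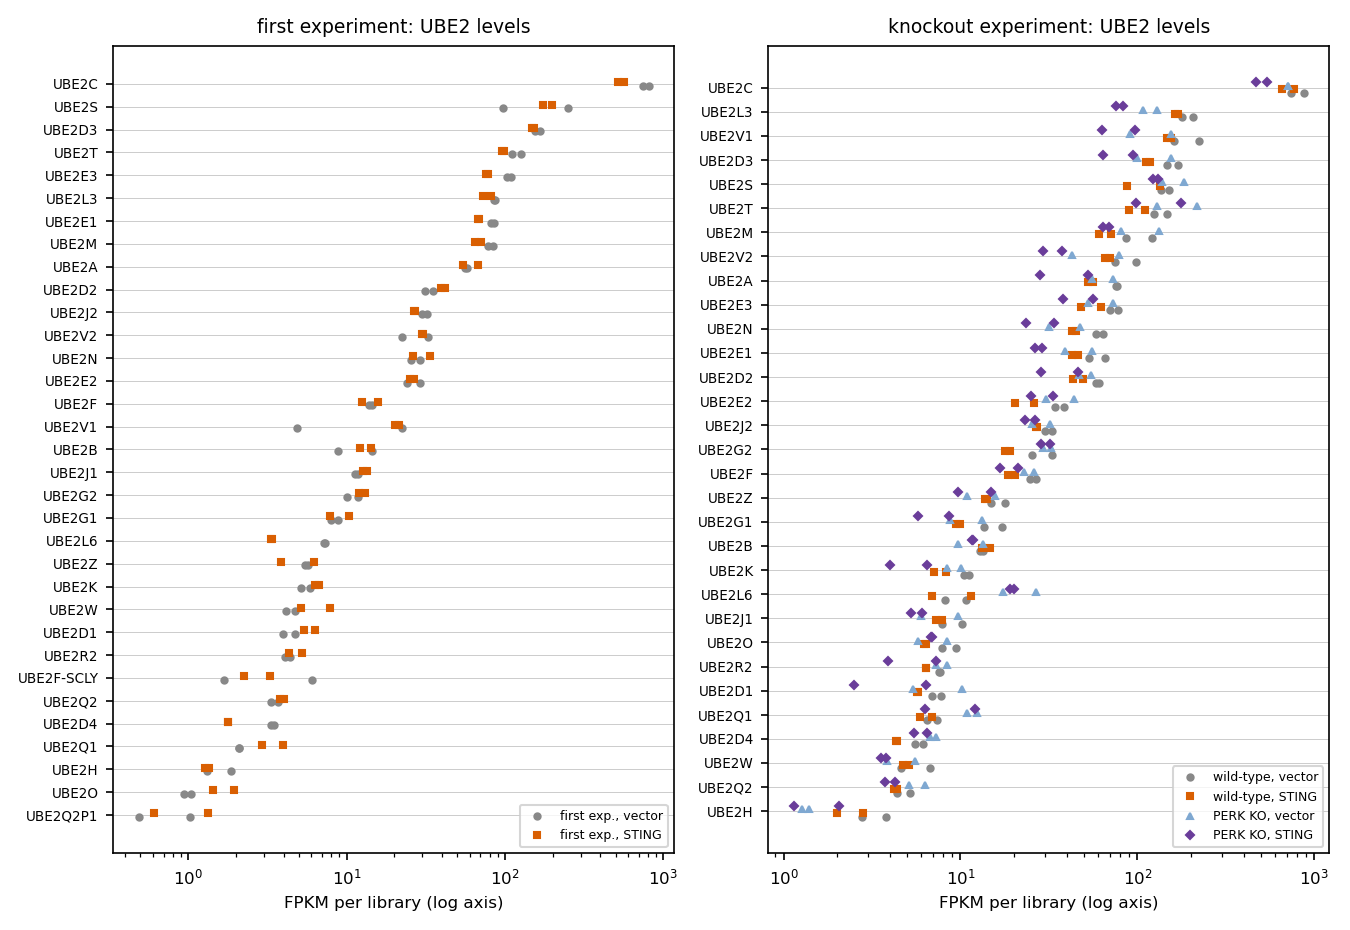
FPKM of UBE2 genes in each library, on a log axis, for the first experiment (left, members with a vector mean of at least 0.5) and the knockout experiment (right). Each point is 1 library. UBE2C is the highest gene in both panels, and in the first experiment UBE2L6 and UBE2D4 show vector and STING points that lie apart.

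The first comparison asks how STING changed the family in the first experiment. UBE2L6, UBE2C and UBE2E3 fell and no member rose (limma on log2(FPKM + 1), adjusted p under 0.05), out of 33 members with a mean of at least 1 FPKM. The other 8 (the 5 at 0 and the 3 UBE2Q2 pseudogenes) were below that mean and were not tested. Of all 9464 genes tested, 11.8% passed, 9.29% lower and 2.51% higher, so 3 lower calls among 33 is near the share of all genes. That balance depended on the scaling and the libraries: 238 genes were higher and 879 lower as deposited, 346 and 431 with quantile normalization, 33 and 9 without STING library 1 and 30 and 8 without STING library 2. The members' median log2 change was 0.10 against -0.05 for all genes, with a range from -0.92 for UBE2L6 to 0.90 for UBE2V1. The members' median was -0.02 without STING library 1 and -0.11 without vector library 1, against -0.04 and -0.12 for all genes. At an unadjusted p under 0.05 none was higher and 4 were lower, UBE2D4 in addition, against 8.82% and 18.9% of all genes. The change was below 0 for 16 of 33 members and 54% of all genes. Both STING libraries lay above both vector libraries for 9 members and below them for 10, where the same held for 24.2% and 32.8% of all genes. After median-of-ratios scaling these counts were 10 and 8, against 28.5% and 29.6%. Each of the 3 calls was lost without either STING library (limma adjusted p from 0.186 to 0.279), and those of UBE2C and UBE2E3 also after median-of-ratios scaling (0.0835 and 0.0675).

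The second comparison asks the same in wild-type cells of the knockout experiment. The largest changes were those of UBE2E2, UBE2M, UBE2G2 and UBE2G1, all lower with STING (log2 change from -0.64 to -0.61). No member passed with limma, and 2 of 32 had an unadjusted p under 0.05, UBE2G2 and UBE2E2, both lower. At that level 0.441% of all genes were higher and 12.4% lower. Of all 12254 genes tested, 0.00816% passed. The log2 change was below 0 in 31 of 32 members, all but UBE2B, and in 81.6% of all genes, and the 2 STING libraries lay below the 2 vector libraries for 24 members and 52.3% of all genes. No member lay higher without overlap, as 3.31% of all genes did. Most of that downward shift was shared by the table: the members' median was -0.35 and that of all genes -0.27, and after median-of-ratios scaling these became -0.02 and 0.05. On the scaled values 6 members lay lower and 6 higher without overlap, against 16.7% and 30% of all genes.

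In PERK knockout cells the largest changes with STING were those of UBE2V2, UBE2D1, UBE2K, UBE2E1 and UBE2A, all lower (log2 change from -0.79 to -0.72). No member passed, and 0.00816% of all genes did. The members' median log2 change was -0.40 against -0.11 for all genes, and 27 of 32 members lay below the all-gene median. Among members that did not pass, UBE2A, UBE2C, UBE2D3, UBE2E1, UBE2K, UBE2L3 and UBE2V2 had an unadjusted p under 0.05, each lower. At that level 6.64% of all genes were lower and 1.06% higher. The change was below 0 for 29 of 32 members, with UBE2H and UBE2B among the other 3, and for 66.2% of all genes. Both STING libraries lay below both vector libraries for 16 members, against 21.9% of all genes, and above them for none, against 5.66%. After median-of-ratios scaling the medians were -0.22 and 0.04, and 12 members were lower and 3 higher without overlap, against 12.3% and 15.3%. With the filter raised to a mean of 5 FPKM the medians were -0.41 for members and -0.19 for all genes. Knockout STING library 1 was the lower of its pair for 27 of 32 members and 65.1% of all genes. Without it the members' median was -0.21 and that of all genes -0.04, and without knockout vector library 2 they were -0.26 and -0.02.

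The difference between the STING effects of knockout and wild-type cells was tested as an interaction. It passed for no member and for 0% of all genes (limma), and no member had an unadjusted p under 0.05, as against 3.04% of all genes higher and 0.832% lower. It was below 0 for 17 of 32 members and 33.4% of all genes, with medians of -0.06 and 0.13. After median-of-ratios scaling it was below 0 for 27 members, with medians of -0.24 for members and -0.02 for all genes. STING itself was higher in wild-type than in knockout cells, as given above, so PERK and the dose of STING cannot be told apart in this contrast. The largest positive difference among members was that of UBE2G2, at 0.61 (95% interval -0.05 to 1.26), and the largest negative one that of UBE2V2, at -0.45 (-1.43 to 0.53). UBE2M gave 0.00 with an interval from -0.90 to 0.90, so effects that differ by up to that size are compatible with these libraries.

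Knockout cells with vector were compared with wild-type cells with vector, a baseline that shares its libraries with both STING contrasts. UBE2L6 was the member with the largest difference, higher in the knockout (log2 difference 1.11), followed by UBE2H (-0.87) and UBE2L3 (-0.70), both lower. No member passed with limma, against 0.049% of all genes (0.0326% higher and 0.0163% lower). UBE2L3, UBE2L6, UBE2H and UBE2N had an unadjusted p under 0.05. UBE2L6 was the 1 of these 4 that was higher in the knockout, where 4.38% of all genes were higher and 7.99% lower at that level. The difference was below 0 for 21 of 32 members and 60.6% of all genes. The members' median log2 difference was -0.20 against -0.09 for all genes. Without knockout vector library 1, which was the lower of its pair for 28 of 32 members and 66.3% of all genes, both medians came to -0.02. Without knockout vector library 2 they were -0.33 and -0.16. The 2 knockout libraries lay above the 2 wild-type libraries for 3 members (UBE2L6, UBE2Q1 and UBE2D4) and below them for 9, against 12.5% and 25.8% of all genes. After median-of-ratios scaling the counts were 8 and 6, against 21.1% and 17.8%, and the medians -0.04 for members and 0.05 for all genes.

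**Figure D2:**
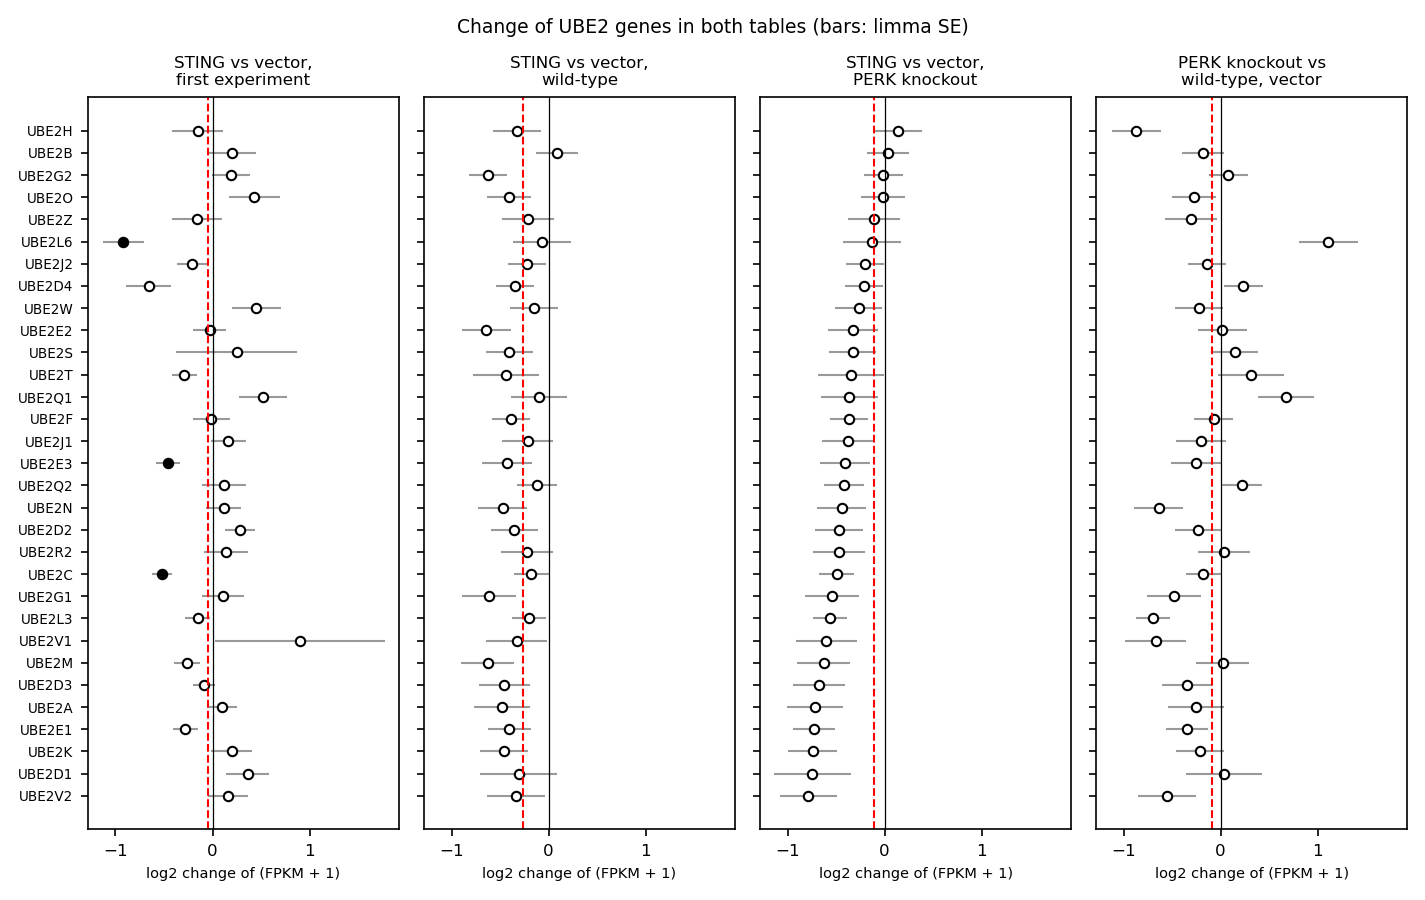
Log2 change of FPKM + 1 for 31 UBE2 genes of both tables in 4 comparisons, with limma SE as bars. Filled points passed at an adjusted p of 0.05, the solid line marks 0 and the dashed line the median of all genes, which lies at -0.05, -0.27, -0.11 and -0.09 from left to right. Filled points appear in the first panel alone, and in the knockout panel 27 of the points lie left of the dashed line.

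UBE2L6, the E2 enzyme of ISG15, fell in the first experiment while ISG15 rose. The vector libraries held UBE2L6 at 7.30 and 7.15 FPKM and the STING libraries at 3.35 and 3.36, so the groups did not overlap and the mean with STING was 0.464 of that with vector (log2 change -0.92, SE 0.21, limma adjusted p = 0.0309). ISG15 rose from 78.6 and 84.0 to 551 and 501 FPKM, a ratio of 6.47. The UBE2L6 call held after median-of-ratios scaling (0.0410) and quantile normalization (0.0392), and was lost without each of the 4 libraries in turn (0.0890 to 0.219).

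In the knockout experiment the UBE2L6 libraries separated by genotype and overlapped between plasmids. Wild-type cells held it at 8.21 and 10.8 FPKM with vector against 11.5 and 6.94 with STING. Knockout cells held it at 17.4 and 26.6 with vector against 20.2 and 19.1 with STING, and all 4 knockout libraries lay above all 4 wild-type libraries. The same held for 5.79% of all genes in that direction. The knockout mean was 2.31 times the wild-type mean with vector and 2.13 times with STING. With vector the log2 difference was 1.11 (SE 0.30, limma adjusted p = 0.243) and did not pass. ISG15 was on the other side, with 109 and 82.7 FPKM in wild-type and 52.6 and 51.6 in knockout vector libraries, a ratio of 0.544 that did not pass either (limma adjusted p = 0.222). With STING it stood at 168 and 124 in the wild type and 75.3 and 71.8 in the knockout. Both pairs lay above the vector libraries of their genotype, and neither change passed (limma adjusted p = 0.384 and 0.647).

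**Figure D3:**
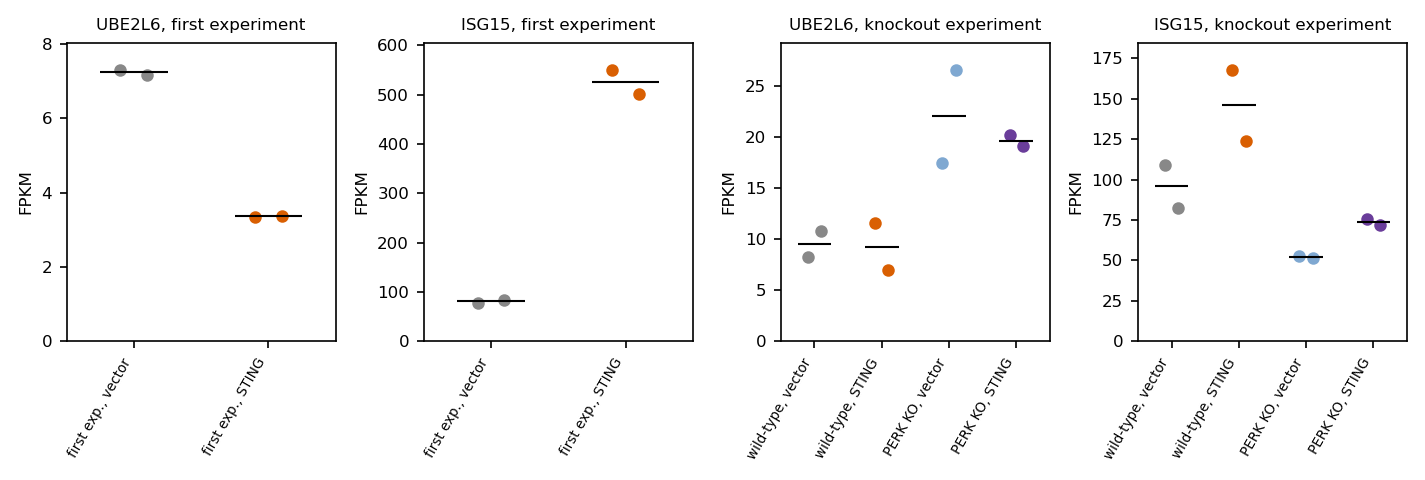
FPKM of UBE2L6 and ISG15 in each library of the first experiment (left pair of panels) and of the knockout experiment (right pair). Points are libraries and lines are means of 2. UBE2L6 lies lower and ISG15 higher with STING in the first experiment, and in knockout cells UBE2L6 lies above and ISG15 below its wild-type libraries with the same plasmid.

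The bases before the transcription start of ISG15 and UBE2L6 are shown, from RefSeq on build GRCh38.p14 and on the gene's strand. Of the 41 member symbols 28 had an entry in that promoter set. Capitals mark matches to GAAANNGAAA, the core of the interferon-stimulated response element, searched on both strands in the 250 bases before each start. ISG15 (chr1:1013247-1013496, plus strand) holds 2 overlapping matches that begin 113 and 107 bases before its start:
ISG15: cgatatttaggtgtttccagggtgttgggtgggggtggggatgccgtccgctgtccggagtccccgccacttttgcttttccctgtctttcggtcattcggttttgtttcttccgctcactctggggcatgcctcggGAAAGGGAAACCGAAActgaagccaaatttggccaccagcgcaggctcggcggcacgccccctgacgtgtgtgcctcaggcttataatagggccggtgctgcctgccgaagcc
The first of 2 RefSeq starts of UBE2L6 (chr11:57567936-57568185, minus strand) holds none, nor does the second:
UBE2L6: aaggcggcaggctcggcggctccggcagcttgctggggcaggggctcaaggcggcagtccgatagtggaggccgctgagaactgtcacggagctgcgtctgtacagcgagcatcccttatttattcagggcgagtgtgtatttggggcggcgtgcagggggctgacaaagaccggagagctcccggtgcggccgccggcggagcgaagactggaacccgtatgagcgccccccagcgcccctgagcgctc
The motif was in 3.02% of 35116 windows of this length from all genes, and among 40 windows of members in 1, at UBE2D3. A match is a description of letters, and no match says only that these letters are not in the window. A link between these letters and the changes of either gene was not tested.

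UBE2C, which starts chains for the anaphase-promoting complex, fell in the first experiment from 806 and 744 FPKM to 563 and 516, with no overlap (log2 change -0.52, SE 0.10, limma adjusted p = 0.0179). With quantile normalization the change was -0.10 (limma adjusted p = 0.559). In wild-type cells of the knockout experiment the vector libraries, at 874 and 734, overlapped the STING libraries, at 766 and 654. Knockout cells held UBE2C at 708 and 708 with vector and lower, at 539.5 and 468, with STING, without overlap (log2 change -0.49, limma adjusted p = 0.598).

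UBE2S, which extends the chains that UBE2C starts, showed no such order in the first experiment. Its vector libraries stood at 97.3 and 251 FPKM, on both sides of the STING libraries at 174 and 199. Without vector library 2 the fit called UBE2S higher with STING (log2 change 0.93, limma adjusted p = 0.0196), against 0.25 (0.849) with all 4. In wild-type cells it stood at 137 and 151 with vector against 87.9 and 134 with STING. In knockout cells it stood at 183 and 139 against 130.5 and 123. STING libraries were lower without overlap in both genotypes, and neither change passed. The same order held for 52.3% of all genes in wild-type and 21.9% in knockout cells. Those shares apply to this order in the genes below too.

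UBE2T is the enzyme of the Fanconi anaemia pathway of DNA crosslink repair. Its vector libraries stood at 111 and 126 FPKM in the first experiment and its STING libraries, both lower, at 95.2 and 98.2 (limma adjusted p = 0.181). In wild-type cells the vector libraries, at 124 and 147, also lay above the STING libraries, at 89.4 and 109.7. In knockout cells the groups overlapped, at 129 and 218 with vector against 98.3 and 176 with STING, and library 2 of each pair was the higher.

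Among the general-purpose UBE2D enzymes, which serve many E3 ligases, the first experiment showed no shared direction. UBE2D2 stood at 31.5 and 34.9 FPKM with vector against 41.6 and 39.7 with STING. UBE2D1 stood at 3.97 and 4.69 against 5.37 and 6.33, so both genes were higher with STING without overlap. UBE2D3 went the other way, from 154 and 165 to 148 and 152, and so did UBE2D4, from 3.48 and 3.34 to 1.80 and 1.80. None of the 4 passed (limma adjusted p from 0.113 for UBE2D4 to 0.660 for UBE2D3). In the knockout experiment each of the 4 had a log2 change below 0 in both genotypes. UBE2D3, the most abundant of them, stood at 147 and 169 with vector against 118 and 112 with STING in wild-type cells. Its knockout libraries stood at 99.7 and 155 against 63.6 and 93.9. UBE2D1 had the largest knockout change of the 4 (-0.74), with libraries that overlapped, at 5.42 and 10.3 against 2.49 and 6.40. The opposite signs of UBE2D1 and UBE2D2 in the 2 experiments were not tested against each other, since the tables were made separately.

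UBE2E3, of a related trio with an extended amino terminus, fell in the first experiment from 104 and 109 FPKM to 75.7 and 78.7 (log2 change -0.46, SE 0.12, limma adjusted p = 0.0494). UBE2E1 was lower without overlap too, at 85.0 and 81.1 with vector against 68.0 and 68.4 with STING, and did not pass (0.195). UBE2E2 overlapped, at 24.1 and 29.2 against 26.6 and 25.3. In knockout cells UBE2E1 had the smallest unadjusted p of the members for STING. Its knockout libraries stood at 55.0 and 39.0 with vector against 26.2 and 28.9 with STING, without overlap (log2 change -0.73, limma adjusted p = 0.513). Its wild-type libraries stood at 65.4 and 53.5 against 46.1 and 42.9, in the same order. UBE2E2 gave the largest wild-type change of the members, from 34.1 and 38.6 to 26.0 and 20.2 FPKM (log2 change -0.64, limma adjusted p = 0.384). UBE2E3, called in the first experiment, had changes of -0.43 in wild-type and -0.41 in knockout cells that did not pass.

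UBE2L3 loads ligases that take ubiquitin onto their own cysteine, such as parkin, and was the member whose knockout libraries all lay below its wild-type libraries. Wild-type cells held it at 179.8 and 206 FPKM with vector against 171 and 164 with STING. Knockout cells held it at 107 and 129.6 against 76.2 and 82.5, a ratio to wild type of 0.614 with vector and 0.475 with STING. The same order of 4 libraries below 4 held for 5.61% of all genes. With vector the genotype difference had the smallest unadjusted p of the members (log2 difference -0.70, SE 0.17, limma adjusted p = 0.222) and did not pass. In the first experiment it stood at 86.6 and 84.9 with vector against 81.4 and 73.1 with STING, slightly lower without overlap (log2 change -0.15).

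No E2 enzyme of the endoplasmic reticulum passed in any comparison. UBE2J1 and UBE2J2 are anchored in its membrane, UBE2G2 is recruited there by membrane-bound ligases, and UBE2G1 is a close relative of UBE2G2. In the first experiment UBE2G2 stood at 10.0 and 11.8 FPKM with vector against 12.0 and 13.1 with STING. UBE2J1 stood at 11.8 and 11.3 against 13.4 and 12.7, so both were slightly higher without overlap. UBE2J2 was lower without overlap, at 29.9 and 32.4 against 27.0 and 26.5, and UBE2G1 overlapped, at 7.93 and 8.82 against 10.4 and 7.91.

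UBE2G2 had the largest interaction of the members in the knockout experiment. Wild-type libraries stood at 25.5 and 33.1 FPKM with vector against 18.0 and 19.1 with STING, without overlap. Knockout libraries interleaved, at 29.1 and 32.4 against 28.7 and 32.2. The wild-type change was -0.62 (SE 0.20, limma adjusted p = 0.384), the knockout change -0.02 (1.00), and the interaction did not pass (limma adjusted p = 0.966). UBE2G1 was lower with STING without overlap in both genotypes, in wild-type cells at 13.6 and 17.3 against 9.90 and 9.46. Its knockout libraries stood at 8.67 and 13.2 against 5.76 and 8.58. UBE2J1 and UBE2J2 had log2 changes of -0.22 and -0.22 in wild-type and of -0.38 and -0.20 in knockout cells.

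UBE2N builds chains used in signalling and DNA damage tolerance and does so in a pair with UBE2V1 or UBE2V2. In the first experiment UBE2N stood at 25.7 and 29.3 FPKM with vector against 33.7 and 26.3 with STING, and UBE2V2 at 22.3 and 32.7 against 30.4 and 30.1, both with overlap. UBE2V1 stood at 22.3 and 4.84 against 20.3 and 21.3, so vector library 2 stood apart from the other 3. In that library TMEM189-UBE2V1, a read-through entry that ends in UBE2V1, stood at 21.8 FPKM, above its 5.36 in vector library 1 and its 9.01 and 8.43 with STING. The sum of both entries was 27.6 and 26.7 FPKM with vector against 29.3 and 29.7 with STING. In GENCODE 29, 31.7% of the 150-base stretches of UBE2V1 transcripts also occur in TMEM189-UBE2V1, so reads of this length cannot always be assigned to 1 of them. The fitted log2 change of UBE2V1 was 0.90 (SE 0.87, limma adjusted p = 0.605). Without vector library 1, with library 2 as the lone vector library, UBE2V1 was called higher (1.90, limma adjusted p = 0.00817).

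**Figure D4:**
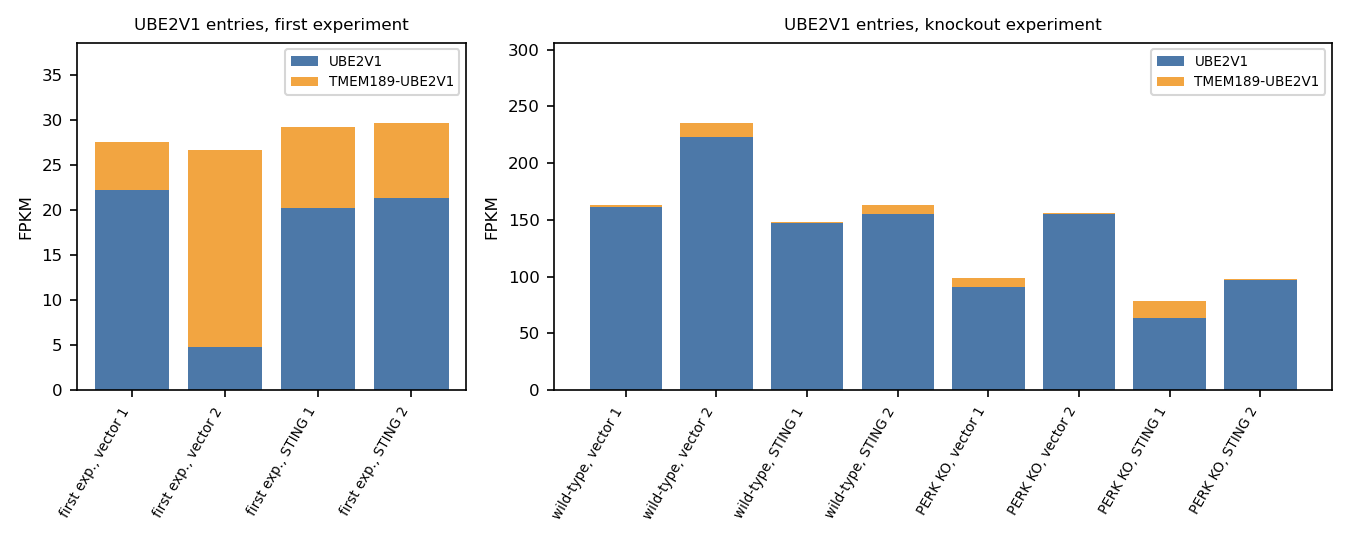
FPKM of UBE2V1 and of the read-through entry TMEM189-UBE2V1, stacked, in each library of the first experiment (left) and of the knockout experiment (right, where the lowest value of the table is 1). In vector library 2 of the first experiment most of the bar belongs to the read-through entry, and the height of the bar, 26.7 FPKM, is close to that of the other 3.

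In the knockout experiment UBE2N, UBE2V1 and UBE2V2 all had lower vector means in knockout than in wild-type cells, and none passed. UBE2N stood at 58.2 and 63.6 FPKM in the wild type against 31.5 and 47.4 in the knockout, a ratio of 0.648 without overlap (log2 difference -0.64, limma adjusted p = 0.365). UBE2V1 stood at 162 and 223 against 91.3 and 155, without overlap. UBE2V2 stood at 75.1 and 97.9 against 43.0 and 78.3, with overlap. All 3 means were lower still with STING in each genotype. UBE2V2 had the largest knockout change of the members, to 29.3 and 37.7 (log2 change -0.79, SE 0.30, limma adjusted p = 0.614), and stood at 69.9 and 65.5 with STING in wild-type cells. UBE2N with STING stood at 42.5 and 44.7 in the wild type against 23.5 and 33.8 in the knockout.

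UBE2M, which loads NEDD8 onto most cullins, was lower with STING without overlap in each of the 3 STING comparisons and passed in none. UBE2D3, UBE2D4, UBE2E1 and UBE2L3 showed the same order in all 3. Lower values without overlap held for 32.8% of all genes in the first experiment, 52.3% in wild-type and 21.9% in knockout cells. After median-of-ratios scaling these shares were 29.6%, 16.7% and 12.3%. The share of all genes with this order in all 3 was not counted, so the recurrence among members cannot be set against it. The first experiment held UBE2M at 84.1 and 78.6 FPKM with vector against 64.6 and 70.7 with STING (log2 change -0.26). Wild-type cells held it at 121 and 85.7 against 70.5 and 61.0 (-0.63). Knockout cells held it at 133 and 80.6 against 64.0 and 69.4 (-0.63). UBE2F, the second NEDD8 enzyme, overlapped in the first experiment, at 14.4 and 13.9 against 12.5 and 15.8, as did the read-through entry UBE2F-SCLY, at 6.07 and 1.69 against 2.24 and 3.31. In the knockout experiment UBE2F was lower with STING without overlap in both genotypes (log2 changes -0.39 and -0.36) and passed in neither. UBE2Z, which is charged by the E1 enzyme UBA6 and carries FAT10 or ubiquitin, stood at 5.48 and 5.72 against 3.84 and 6.19 in the first experiment, with overlap.

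UBE2A and UBE2B are close relatives, the human counterparts of yeast RAD6 in DNA damage tolerance and histone H2B ubiquitination. UBE2A stood at 76.0 and 76.4 FPKM with vector against 56.0 and 52.8 with STING in wild-type cells, lower without overlap. Its knockout libraries were in the same order, at 55.6 and 73.3 against 28.2 and 52.3 (log2 changes -0.48 and -0.72). UBE2B overlapped in both genotypes, at 12.9 and 13.3 against 14.7 and 13.3 in wild-type cells. Its knockout libraries stood at 9.70 and 13.4 against 11.7 and 11.8 (changes 0.09 and 0.04). No change of either gene passed, and the difference between the 2 genes was not tested. In the first experiment both overlapped, UBE2A at 55.9 and 57.6 against 67.8 and 54.7 and UBE2B at 8.84 and 14.4 against 12.2 and 14.2.

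UBE2K builds chains that direct proteins to the proteasome. It was higher with STING without overlap in the first experiment, at 5.90 and 5.19 FPKM against 6.29 and 6.74. In wild-type cells it was lower, at 10.5 and 11.2 against 7.07 and 8.27. In knockout cells it was lower too, at 8.42 and 10.1 against 4.01 and 6.46 (log2 change -0.74, limma adjusted p = 0.556), both without overlap. UBE2R2, the close relative of the cullin partner CDC34, overlapped in the first experiment, at 4.37 and 4.08 against 5.21 and 4.33, and had changes of -0.22 and -0.47 in the second. Neither gene passed in any comparison.

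None of the remaining members passed. UBE2Q1, whose role is less well defined, was higher with STING without overlap in the first experiment, at 2.08 and 2.09 FPKM with vector against 2.93 and 3.96 with STING. With vector it was also higher in knockout cells, at 10.9 and 12.4, than in wild-type cells, at 7.39 and 6.45 (log2 difference 0.67, limma adjusted p = 0.405). UBE2H, a partner of the CTLH ligase, stood at 1.27 and 1.39 in knockout and 2.78 and 3.79 in wild-type vector libraries, a ratio of 0.405 without overlap, near the floor of the table (log2 difference -0.87, limma adjusted p = 0.261). With vector both genes thus had genotype groups that lay apart. With STING the genotypes overlapped, for UBE2Q1 at 6.34 and 12.1 in the knockout against 6.88 and 5.90 in the wild type. UBE2H with STING stood at 1.14 and 2.05 against 2.01 and 2.82. UBE2O, a large enzyme that acts without a separate ligase, was higher with STING without overlap in the first experiment, at 0.944 and 1.04 against 1.95 and 1.44. UBE2W, which modifies amino termini, was higher too, at 4.74 and 4.15 against 5.18 and 7.90, and UBE2Q2 as well, at 3.35 and 3.70 against 4.04 and 3.79. All 3 had log2 changes below 0 in both genotypes of the second experiment, between -0.42 and -0.02.

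Other genes of the relay were read from lists chosen with earlier results known. Over all genes of the first experiment 2.51% passed higher and 9.29% lower, and the counts per list were not tested against these shares. In the first experiment 1 of 8 tested E1 enzymes rose and none fell: UBA1, the main ubiquitin E1, stood at 13.0 and 14.9 FPKM with vector against 27.5 and 26.8 with STING (log2 change 0.92, SE 0.17, limma adjusted p = 0.0149). Of 13 tested modifiers ISG15 rose and URM1, a sulfur carrier that also modifies proteins, fell from 55.7 and 63.8 to 33.4 and 37.4 (limma adjusted p = 0.0207). Of 8 listed genes of the ISG15 pathway 4 were tested, and ISG15 and UBE2L6 were the calls. UBA7, HERC5, HERC6 and TRIM25 had means under 1 FPKM and were not tested. HERC5, at 0 and 0.477 with vector against 2.41 and 0.976 with STING, and TRIM25, at 0.155 and 0.228 against 0.693 and 0.350, were higher without overlap. UBA7 and HERC6 overlapped. Of 14 tested ligases and partners at the endoplasmic reticulum none rose, and DERL2 and DERL3, proteins of its retrotranslocation machinery, fell. DERL3 went from 28.4 and 27.5 to 13.6 and 15.3. Of 14 tested parts and activators of the anaphase-promoting complex, ANAPC11, its catalytic RING subunit, fell from 1658 and 1500.5 to 1122 and 1000.3 (limma adjusted p = 0.0147). No gene passed among 14 cullin and NEDD8 partners, 7 ligases and partners of UBE2N in DNA damage and signalling, and 8 SUMO ligases and proteases.

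None of these listed genes passed in the 4 comparisons of the knockout experiment (limma, smallest adjusted p 0.209). The E1 list had median changes with STING of -0.34 in wild-type and -0.15 in knockout cells, against -0.27 and -0.11 for all genes. The list of endoplasmic reticulum ligases had -0.40 and -0.21, and that of the anaphase-promoting complex -0.43 and -0.16. Ligases and partners of UBE2N had -0.42 and -0.27, and E2-type genes without a UBE2 symbol -0.38 and -0.34. Modifiers had -0.24 and -0.31, and cullin and NEDD8 partners -0.27 and -0.23. SUMO ligases and proteases had -0.25 and -0.16, and the ISG15 pathway -0.12 and -0.06. UBA1, which rose in the first experiment, was lower without overlap in wild-type cells, at 45.8 and 49.1 with vector against 33.9 and 35.2 with STING, and did not pass.

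Close relatives could share reads, so stretches of 150 bases, the read length given in the labels, were compared between transcripts of all genes in GENCODE 29. Of 32 members of the knockout experiment 28 shared no such stretch with a transcript of another gene. Beside UBE2V1, UBE2F shared 5% with UBE2F-SCLY, UBE2S 3.87% with 2 pseudogenes and UBE2W 3.5% with 1 other entry. How the authors' processing split such reads is not given in the sources used here, so the levels of UBE2V1, and to a lesser extent of these 3 genes, are uncertain.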

How the data were processed

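Polysome RNA of 12 libraries (Smart-seq2) was used as the authors' deposited FPKM values. Per the submitters' processing notes these involved TopHat2 2.1.1, Cufflinks 2.2.1 and build hg19; the sources used here do not give the annotation. The table of the knockout experiment does not name its unit and its lowest value is 1. Read depth is unknown, so no counting interval can be given. Groups came from the labels. Each table was fitted on its own with limma 3.58.1 (R 4.3.3) on log2(FPKM + 1). Genes whose mean in that table was 1 or more entered, with a trended, robust prior and Benjamini-Hochberg adjustment over all genes tested. The spread was estimated once over all 8 knockout-experiment libraries. Fold changes on this scale understate those of low genes. Scripts were tested on simulated data. The main fit did not pair samples by replicate number, under a rule that asked for replicate differences correlated above 0.1 in each pair of groups. The correlation r was 0.0741 in the first experiment. In the other it lay between 0.0418 (wild-type and knockout STING) and 0.528 (knockout vector and STING), with 5 of 6 pairs above 0.1. An effect shared by libraries of 1 replicate number is therefore left in the spread of the main knockout-experiment fit. The replicate block, run as an alternative, takes it out. The members, gene lists and promoter motif were chosen with earlier results of these data known. Values per library are given for members that passed, for the 5 with the largest change in each contrast among those with a mean of at least 5, and for representatives of each role. Some results that this rule selects are not reported here, though totals include them. The few others named were chosen after their values were seen. Alternatives were other pseudocounts (0.1 and 5), filters, scalings, priors, a replicate block and each library left out.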

Additional observations from a re-analysis of the deposited data

How the results depend on the processing

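Among members in the first experiment, the 3 lower calls became 0 without a filter on low values and 0 without the trended, robust prior, and 1 (UBE2L6) with median-of-ratios scaling and 1 (UBE2L6) with quantile normalization. Lower calls over all genes went from 879 to 476, 7, 695 and 431 in the same settings, and higher calls from 238 to 104, 10, 287 and 346. Leaving out 1 library gave 0 to 1 lower and 0 to 1 higher calls, the higher being UBE2V1 without vector library 1 and UBE2S without vector library 2; an arm left with 1 library is assumed to vary like the other. The count stayed at 3 with pseudocounts of 0.1 and 5, a mean of at least 5 and the replicate block. In the other 4 comparisons no member passed under any alternative run. For the knockout against wild type with vector, the replicate block moved the calls over all genes from 4 higher and 2 lower to 62 and 43, with no member among them. With that block UBE2L3 had a limma adjusted p of 0.0793, against 0.222 without it, and UBE2L6 one of 0.117, against 0.243. The members' median interaction, -0.06 against 0.13 for all genes, was 0.11 without knockout vector library 2 and 0.11 without knockout STING library 1 (all genes 0.20 in both). It was -0.26 without knockout vector library 1 (0.07) and -0.22 without knockout STING library 2 (0.05). It was -0.16 without wild-type STING library 1 (0.12), and -0.24 with median-of-ratios scaling (-0.02) and with quantile normalization (0.01). Causes were not tested. With 2 libraries a group and unknown depth, the precision is limited.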

Other observations

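E2-type proteins without a UBE2 symbol stood outside the family rule and gave no call in any of the 5 comparisons (limma; 7 were tested in the first table, 8 in the second). CDC34, which works with cullin ligases, stood at 29.7 and 55.4 FPKM with vector against 48.0 and 59.9 with STING in the first experiment, with overlap. TSG101, an E2-like protein of endosomal sorting without a catalytic cysteine, stood at 9.36 and 6.81 with vector against 13.8 and 11.8 with STING, higher without overlap. ATG3 was higher without overlap too. ATG10, UFC1 and AKTIP of the same list were lower without overlap, ATG10 at 3.99 and 4.83 against 2.12 and 1.70. Among all genes of that experiment 24.2% lay higher and 32.8% lower without overlap. BIRC6, a giant E2 enzyme that restrains cell death, was near the floor of 1 in the knockout experiment, with 1.04 FPKM as its highest value.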
